A study of Mus musculus with 32 samples.

Results

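The Dlk1-Dio3 cluster miRNAs are the mature products of the large imprinted miRNA cluster on mouse chromosome 12. They were chosen by name alone. Of the 1963 miRNAs in the deposited table, 97 carried the name of a cluster miRNA with any suffix or arm, and the 83 with at least 10 counts in at least 4 libraries were kept. At the edge of this rule, miR-539-3p reached 10 counts in 4 libraries and miR-381-5p and miR-541-3p in 5, while miR-495-5p, left out, did so in 2. The expression filter of the test passed 82 of the 83 among 556 miRNAs in all, and miR-541-3p was the member not tested.

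The cells were primary hippocampal neurons of P0 mice, kept for 16 days in vitro. They were exposed for 30 minutes to 50 µM forskolin (FSK), which raises cAMP by activating adenylyl cyclase, to 30 µM DHPG, which activates group I metabotropic glutamate receptors, or to the same volume of DMSO. Small RNA was profiled in 4 DMSO, 6 DHPG and 6 FSK libraries, and total RNA in as many. The labels give no strain or genotype and do not say whether replicates were separate cultures or animals, so p-values measure the spread between libraries, which may be technical. Some libraries were more alike than others. The chi-square per degree of freedom between miRNA counts was 10.3 for DHPG 4 with DHPG 5, against 39.8 to 217 for other DHPG pairs. Among FSK 1 to 3 it was 11.5 to 37.4, against 92.0 to 1456 for pairs with FSK 4 to 6. Whether such libraries share a source was not tested.

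The cluster lies in a domain where Dlk1, Rtl1 and Dio3 are expressed from the paternal chromosome, and the non-coding RNAs Meg3, Rian and Mirg, together with the miRNAs, from the maternal one. Each hairpin is cut by Drosha and Dicer into a 5p and a 3p arm, and the seed of the arm loaded into Argonaute selects the mRNAs that it represses. In neurons the cluster is best known for miR-134, which acts on Limk1 and Pum2 in dendrites, and for activity-dependent transcription of the miR-379 to miR-410 group through Mef2.

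RefSeq sequences of the GRCm38.p6 assembly were matched by name for 79 of the 83 members; miR-376c-3p, miR-485-5p, miR-487b-3p and miR-539-3p were the others. Sequences below are 5′ to 3′ with the seed, bases 2 to 8, in capitals. The first set holds the most abundant members, since they carry most of the cluster's counts.
miR-127-3p: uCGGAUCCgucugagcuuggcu
miR-434-3p: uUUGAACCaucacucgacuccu
miR-541-5p: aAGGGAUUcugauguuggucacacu
miR-411-5p: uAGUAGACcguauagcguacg
miR-410-3p: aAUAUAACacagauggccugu

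The next set holds arms of hairpins with members among the 8 of smallest p between FSK and DHPG.
miR-770-5p: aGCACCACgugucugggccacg
miR-770-3p: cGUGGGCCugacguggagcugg
miR-666-5p: aGCGGGCAcagcugugagagcc
miR-666-3p: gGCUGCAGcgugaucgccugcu
miR-370-3p: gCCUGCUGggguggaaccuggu
miR-758-3p: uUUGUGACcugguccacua
miR-323-3p: cACAUUACacggucgaccucu

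The 79 matched members carried 76 seeds, so nearly every member had a seed of its own. Only 3 seeds occurred in 2 members each, and these pairs are shown because they are the exceptions.
miR-379-5p: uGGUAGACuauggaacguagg
miR-1193-5p: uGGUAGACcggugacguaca
miR-411-3p: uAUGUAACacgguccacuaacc
miR-379-3p: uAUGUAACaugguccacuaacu
miR-370-5p: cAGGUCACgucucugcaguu
miR-1193-3p: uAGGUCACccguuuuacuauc

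In DMSO, miR-379-5p averaged 197 CPM (counts scaled to the library's size) against 2.78 CPM for miR-1193-5p with its seed. miR-370-5p averaged 118 CPM and miR-1193-3p 8.50 CPM, while miR-411-3p and miR-379-3p lay closer together at 132 and 91.9 CPM. Outside the cluster, miR-344d-3p shares the seed of miR-410-3p and was at 828 CPM, against 6143 CPM for the member. The other members that share a seed with a tested miRNA elsewhere were miR-329-3p with miR-362-3p, miR-412-3p with miR-1983 and miR-377-5p with miR-672-5p. Here miR-329-3p was the higher one, at 80.2 against 5.91 CPM. miR-412-3p and miR-377-5p were the lower ones, at 28.8 against 531 CPM and 24.9 against 131 CPM.

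A further pair is shown because its counts are uncertain.
miR-381-3p: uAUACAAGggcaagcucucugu
miR-300-3p: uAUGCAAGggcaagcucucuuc

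Counted from the 5′ end of miR-381-3p, they differ by A4G, inside the seed, and by G21U and U22C. Both had fractional counts in all 16 libraries, as a quantifier gives when it divides reads between similar sequences. Their separate levels are therefore uncertain. Their summed level ran from 5520 to 10841 CPM, of which miR-300-3p took 41.3 to 62.2%.

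The 79 located members lay on the plus strand of chromosome 12 in 2 blocks of GRCm38, separated by 90.7 kb without a member. The proximal block, chr12:109563710-109618326, runs from Mir770 to Mir370 with 22 members of 12 hairpins. Of these members, 2 lie within Meg3, 16 within the span of Rtl1, to which they are antisense, and 4 within Rian. The distal block, chr12:109709065-109743784, runs from Mir379 to Mir410 with 57 members of 34 hairpins, and 14 of them lie within Mirg. In DMSO the proximal members summed to 104805 CPM and the distal ones to 46690 CPM, so the smaller block held the larger share. That order rests on miR-127-3p, with a mean of 63445 CPM. Without it the proximal sum would be below the distal one.

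**Figure D1:**
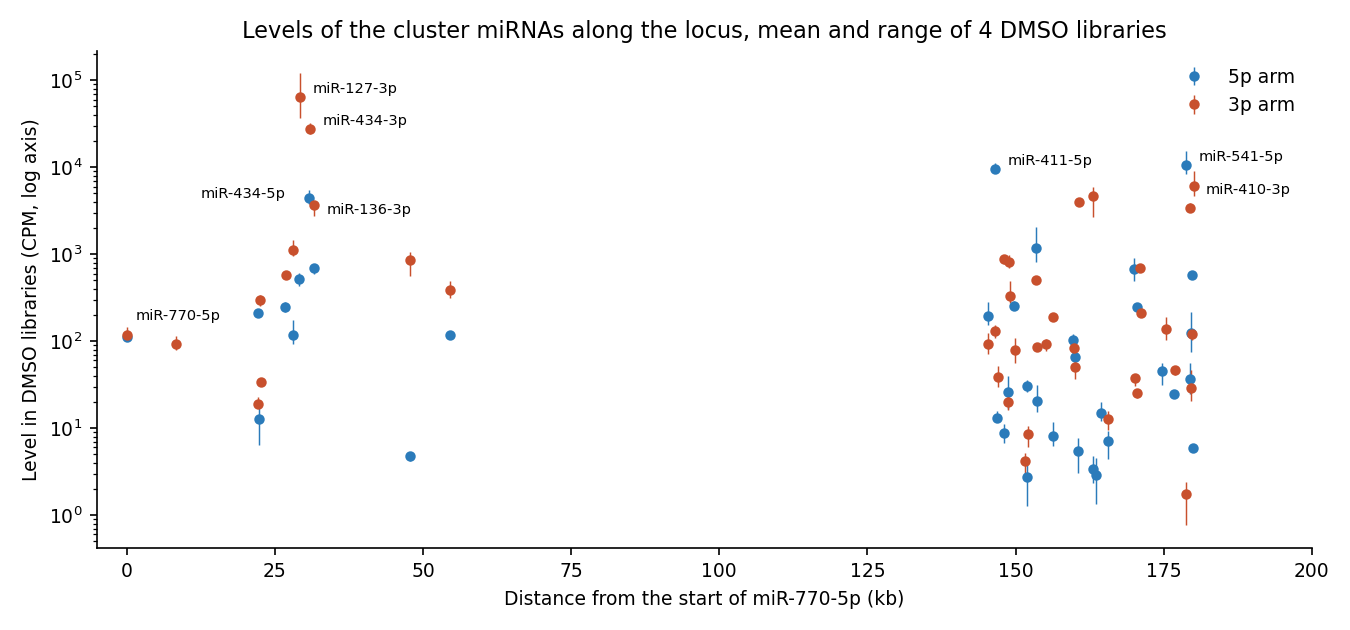
Level of each located member in the 4 DMSO libraries (mean CPM on a log axis, bars from lowest to highest library) against its distance in kb from the start of miR-770-5p; blue marks 5p and red 3p arms. miR-127-3p and miR-434-3p in the proximal block stand above all others, and levels within each block run from under 10 to over 1000 CPM.

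Libraries stood apart in ways that the labels do not describe. By depth and mitochondrial rRNA of the total RNA libraries of the same numbers there were 2 sets: a shallow set of DMSO 1, DHPG 1 to 5 and FSK 1 to 3 (20677117 to 24892959 counts, 1.47 to 2.92% mitochondrial rRNA) and a deep set of DMSO 2 to 4, DHPG 6 and FSK 4 to 6 (38409918 to 59958600 counts, 10.8 to 27.7%). The miRNA libraries held 1748819 to 6756996 counts and did not separate by depth. Cells carried neuronal RNA, with Snap25 at 223 to 624.8 CPM, and also the astrocyte RNA Gfap at 486 to 2575 CPM. FSK 4 and FSK 5 differed further. Summed microglia and blood miRNAs (7 of 7 listed measured) stood at 1535 CPM in FSK 4 and 2546 CPM in FSK 5 and at 207 to 407 CPM in the other 14. Oligodendrocyte lineage miRNAs (4 of 4) summed to 337 and 443 CPM in FSK 4 and FSK 5 and to 171 to 331 CPM in the others. For endothelial, mural and fibroblast miRNAs (7 of 7) only FSK 4 stood out, with 4510 CPM. FSK 5 was at 1492 CPM, inside the 781 to 2764 CPM of the others. Summed neuronal miRNAs (9 of 9) stood at 36035 and 35737 CPM in FSK 4 and FSK 5 and at 47224 to 75291 CPM elsewhere. This sum is weighted towards abundant miRNAs, above all miR-128-3p with a mean of 174743 counts per library. It does not show that the 9 moved together. None of the miRNAs in these lists was at 0 throughout an agent's libraries.

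The cluster made up a large part of the miRNA counts of these cultures, and 1 member dominated it. Cluster miRNAs held 16.2% ± 4.30 of all miRNA counts in DMSO (SD, n = 4), 21.5% ± 2.19 in DHPG (n = 6) and 15.3% ± 4.68 in FSK (n = 6). The share also differed by library set, at 21.2% ± 1.96 in the shallow (n = 9) and 13.6% ± 3.14 in the deep set (n = 7). Within the shallow set it was 22.5% in the 1 DMSO library, 22.3% in DHPG and 19.0% in FSK. Within the deep set it was 14.1% in DMSO, 17.8% in the 1 DHPG library and 11.6% in FSK. miR-127-3p, antisense to Rtl1, alone held 41.3% of the cluster's level in DMSO and ranked 3 in the whole table. The 10 most abundant members held 89.5%. In DMSO 13 members were at 1000 CPM or more, 30 between 100 and 1000, 27 between 10 and 100, and 13 under 10, down to miR-541-3p at 1.76 CPM. The median member was at 112 CPM, against 39.9 CPM for the other tested miRNAs.

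miR-127-3p stood at 120249 CPM in DMSO 1 and at 37231, 53425 and 42874 CPM in DMSO 2 to 4. In DHPG its lowest, median and highest values were 75203, 125912 and 141145 CPM, and in FSK 34061, 77864 and 127609 CPM. Within each agent the shallow-set libraries were all above the deep-set ones: it held 10.1 to 13.5% of counts in the shallow set and 3.23 to 7.95% in the deep set. The other members together held 9.26% ± 1.23 in the shallow set (n = 9) and 8.62% ± 1.80 in the deep set (n = 7), a difference smaller than the spread between libraries.

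**Figure D2:**
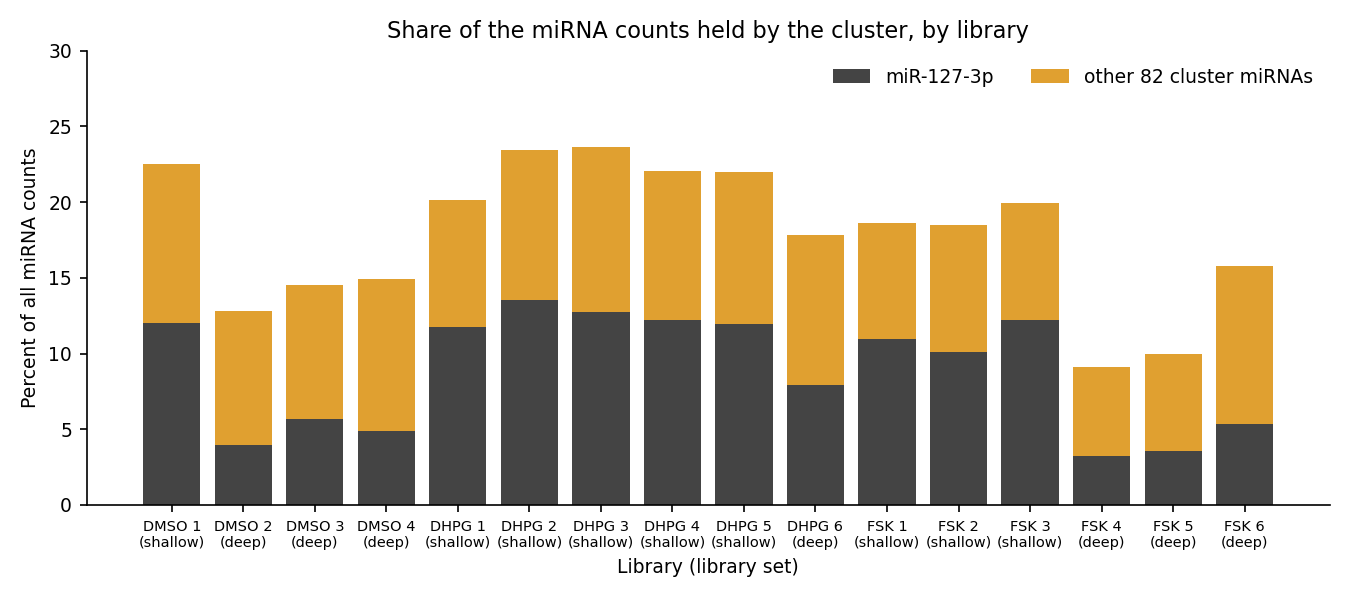
Percent of all miRNA counts in each library held by miR-127-3p (dark) and by the other 82 cluster miRNAs (orange), with the library set under each name. The dark part is 10.1% or more in every shallow-set library and 7.95% or less in every deep-set library, and FSK 4 and FSK 5 have the lowest totals, 9.10 and 9.98%.

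The set difference reached other members. Comparing shallow with deep libraries inside each agent, 42 of 82 members were higher in the shallow set under all 3 agents and 11 lower, against 107 and 162 of the 474 tested miRNAs outside the cluster. miR-127-3p had the largest mean difference, 1.27 on the log2 scale, followed by miR-412-5p with 0.94, and miR-540-5p was at the other end with -1.05. Since 5 of 6 DHPG, 3 of 6 FSK and 1 of 4 DMSO libraries were in the shallow set, agent and set are partly confounded. Each comparison of member levels is therefore given below also within the sets, which was not done for all arm ratios and locus genes.

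The abundant members after miR-127-3p varied less between libraries. miR-434-3p, from the hairpin next to Mir127, stood at 32013, 25967, 23952 and 28979 CPM in DMSO 1 to 4. Its DHPG values ran from 22580 over a median of 30447 to 37842 CPM, and its FSK values from 18568 over 20174 to 28198 CPM. All FSK libraries except FSK 6 lay below every DMSO library, and the DHPG range covered the DMSO range.

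miR-541-5p, from the distal end of the cluster, stood at 15521 CPM in DMSO 1 and at 8286, 9435 and 9396 CPM in DMSO 2 to 4. It ran from 12521 over 15866 to 18367 CPM in DHPG and from 8177 over 11487 to 13676 CPM in FSK. DMSO 1, the one shallow-set control, sat inside the DHPG range and the other controls below it. Next in level in DMSO came miR-411-5p at 9492 ± 1270 CPM, miR-410-3p at 6143 ± 1997, miR-381-3p at 4618 ± 1421, miR-434-5p at 4419 ± 758, miR-300-3p at 3992 ± 222, miR-136-3p at 3650 ± 628 and miR-409-3p at 3393 ± 339 CPM (SD, n = 4). The ranges of neighbours in this order overlapped, from miR-541-5p and miR-411-5p downwards, and the counts of miR-381-3p and miR-300-3p are the uncertain ones.

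Members known from work on synapses and dendrites were of middling level. miR-134-5p averaged 247 ± 24.8 CPM in DMSO, 260 ± 25.8 CPM in DHPG and 217 ± 14.4 CPM in FSK, with overlapping ranges. miR-485-5p, described as acting on the vesicle protein Sv2a, averaged 311 ± 79.5, 378.5 ± 96.0 and 251 ± 46.0 CPM. miR-329-3p averaged 80.2 ± 24.5, 93.7 ± 11.9 and 70.1 ± 19.8 CPM. For miR-136-5p, miR-376a-3p, miR-431-5p and miR-495-3p the log2 fold changes of FSK against DMSO lay between -0.29 and 0.11, and the groups overlapped for each.

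Forskolin was first set against DMSO, which asks whether raised cAMP is followed within 30 minutes by altered mature miRNA. No member passed the edgeR quasi-likelihood test at a Benjamini-Hochberg adjusted p under 0.05, and neither did any of the 556 miRNAs tested (0%). At an unadjusted p under 0.05 there were 53 miRNAs (9.53%, 3.96% lower), of which 10 were members, each with a lower estimate for FSK. The log2 fold changes of the members had a median of -0.20, against 0.04 over all tested miRNAs, and 70 of 82 were below 0, against 46.0% of all tested. DESeq2 called no member and 1 other miRNA, and limma-voom with quality weights called 6 members, 1 higher and 5 lower, among 36 of 556 miRNAs in all, where 15 others were higher and 15 lower. Fewer cells of a type and less RNA per cell cannot be told apart in bulk libraries.

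miR-666-3p, a product of the distal block, had the smallest p. It stood at 544, 478, 480 and 506 CPM in DMSO 1 to 4 and ran from 294 over 354 to 443 CPM in FSK. Every FSK library was below every DMSO library, and the log2 fold change was -0.50 ± 0.13 (SE, edgeR adjusted p = 0.32).

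miR-770-5p, the first member of the cluster, lies within Meg3. It stood at 136.01, 109, 101 and 104 CPM in DMSO and ran from 58.6 over 72.9 to 77.7 CPM in FSK. The groups again did not overlap, and the log2 fold change was -0.66 ± 0.18 (edgeR adjusted p = 0.32). In the authors' deposited table it had a log2 fold change of -0.65 with an adjusted p of 0.039, the one miRNA past 0.05 among the 1389 with an adjusted p there (0.0720%).

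miR-410-5p had the largest estimate among the 4 members of smallest p, -0.96 ± 0.27 (edgeR adjusted p = 0.32), at a level where counts are few. It stood at 5.55 to 6.35 CPM in DMSO and at 1.78 to 3.76 CPM in FSK 1 to 5, while FSK 6 stood at 6.25 CPM, inside the DMSO range. Its partner arm miR-410-3p changed by -0.12 ± 0.20. miR-434-3p followed with -0.37 ± 0.14 (edgeR adjusted p = 0.41).

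In 4 members no FSK library reached the lowest DMSO library, and in no member did all FSK libraries exceed every DMSO library. The 4 were miR-666-3p, miR-758-3p, miR-770-3p and miR-770-5p. Over all tested miRNAs 1.26% were lower and 0.899% higher in this way. Both arms of Mir770 were thus among them, with log2 fold changes of -0.66 and -0.40.

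The lower values appeared inside both library sets. Against the DMSO libraries of the same set, 56 of 82 members (68.3%) had a lower FSK mean in both sets, against 28.4% of all tested miRNAs, and 2 members had a higher one in both, against 32.6%. The single shallow-set control is DMSO 1, so that side rests on 1 library. Library by library, the median member was lower than the same-set DMSO libraries by 0.25, 0.24 and 0.30 (log2) in FSK 1 to 3 and by 0.43 and 0.41 in FSK 4 and FSK 5, while FSK 6 was higher by 0.09. For the miRNAs outside the cluster these medians lay between -0.0020 and 0.13.

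Cell-type miRNAs moved with part of this difference. FSK 4 and FSK 5, the libraries with the lowest member medians, were also those with the low neuronal and high microglial sums given above. Taken singly, the 9 neuronal miRNAs had a median log2 fold change of 0.03 in FSK against DMSO. The 3 tested miRNAs of microglia and blood had a median of 1.63, and edgeR called 0 in both lists. In FSK 1 to 3 the neuronal sum was 69855 to 75291 CPM, above the 62925 CPM of DMSO 1, and the microglia and blood sum was 289 to 403 CPM. Without FSK 4 and FSK 5 the members' median log2 fold change was -0.07, or -0.12 when the library set was modelled too, and edgeR called no member (5 and 14 under an unadjusted p of 0.05, among 61 and 81 of the 538 miRNAs tested).

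The 2 blocks of the cluster gave similar values. The median log2 fold change of FSK against DMSO was -0.28 over the proximal and -0.17 over the distal members. The 12 tested members above 0 included miR-127-3p at 0.29 ± 0.43, miR-379-5p at 0.20 ± 0.22, both arms of miR-1193 at 0.19 and 0.12, and miR-495-3p at 0.11 ± 0.18. For each of them the standard error exceeded the estimate.

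**Figure D3:**
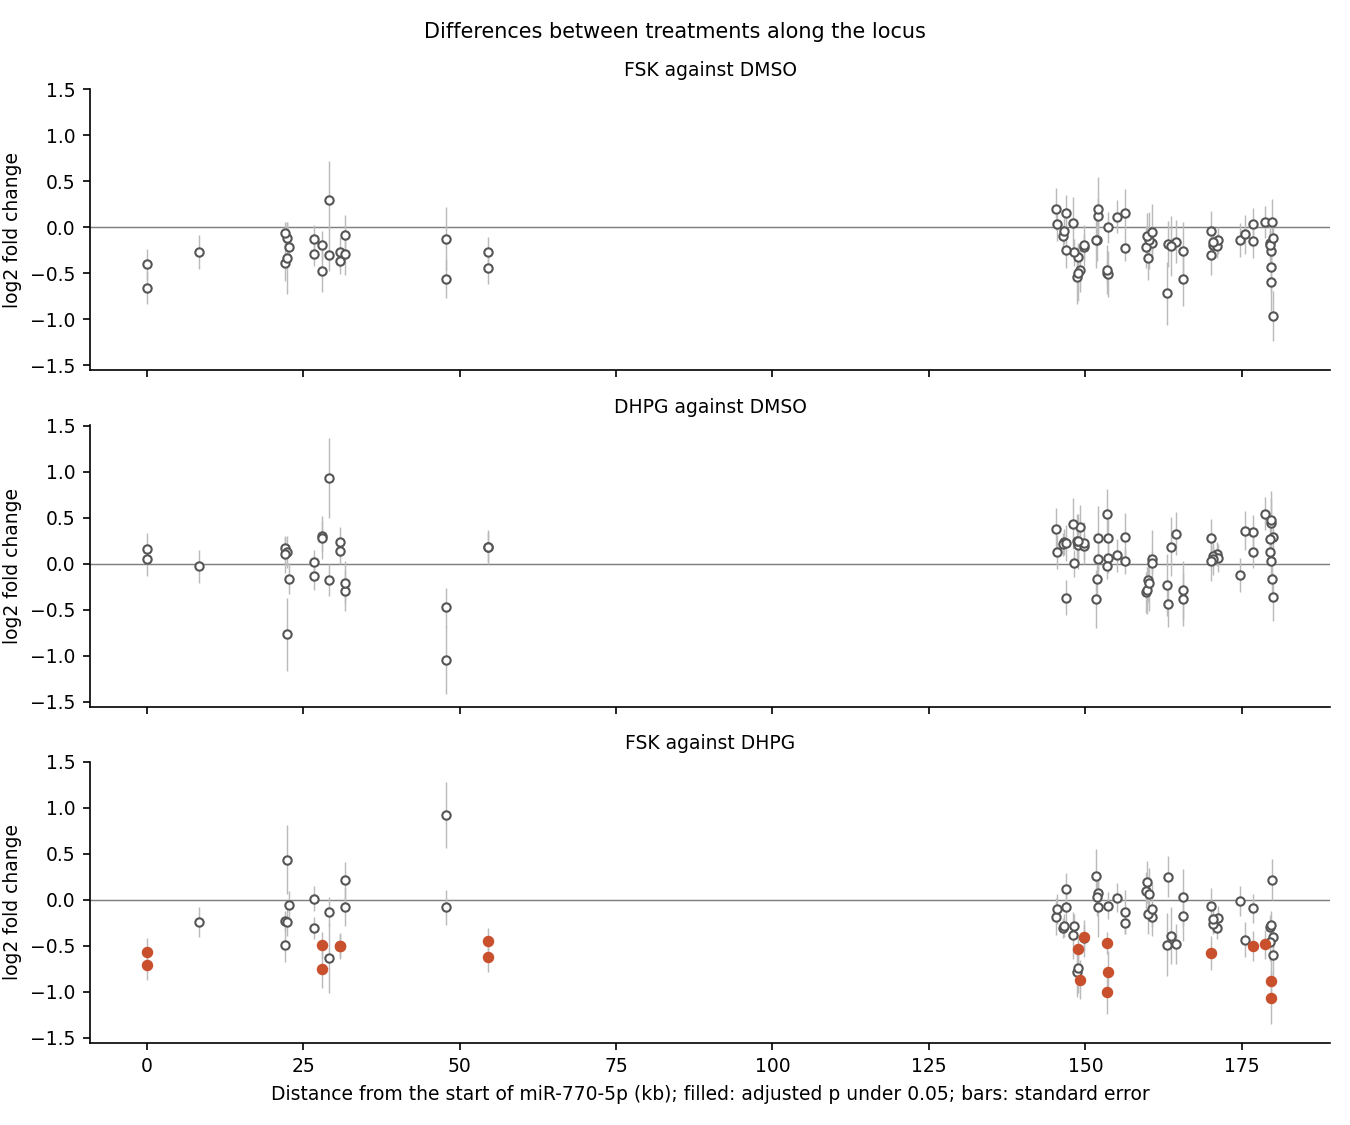
Log2 fold change of each located and tested member (point) with its standard error (bar) against distance in kb from the start of miR-770-5p, for the 3 comparisons; filled red points have an edgeR adjusted p under 0.05. Filled points occur only for FSK against DHPG, all below 0 and in both blocks.

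DHPG against DMSO asked the same of group I metabotropic receptor activation, with the same 4 DMSO libraries as controls. No member and none of the 556 tested miRNAs passed the edgeR test (0%). At an unadjusted p under 0.05 there were 61 miRNAs (11.0%), 3 of them members. DESeq2 called none, and limma-voom called 23 members, 18 higher and 5 lower, among 172 of 556 miRNAs in all, where 62 others were higher and 87 lower. The members' median log2 fold change was 0.10, against -0.02 over all tested miRNAs. Within the sets the median member difference was -0.10 in the shallow set, with 1 DMSO library, and 0.04 in the deep set, with 1 DHPG library. The DHPG mean was lower in both sets for 27 of 82 members (32.9%), against 27.2% of all tested miRNAs. It was higher in both for 13 members (15.9%), against 26.3%.

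The 4 members of smallest p were miR-541-5p at 0.54 ± 0.18 (edgeR adjusted p = 0.40), miR-341-5p at -1.05 ± 0.37, miR-341-3p at -0.47 ± 0.21 and miR-127-3p at 0.93 ± 0.44 (edgeR adjusted p = 0.42). All 4 also differed between the library sets inside the agents. Within the shallow set miR-541-5p differed between DHPG and DMSO by 0.05, miR-127-3p by 0.11, miR-341-5p by -1.09 and miR-341-3p by -0.02. Within the deep set, with 1 DHPG library, the differences in this order were 0.47, 0.77, -0.06 and -0.06. With the library set in the model, the estimate of miR-541-5p was 0.27, that of miR-127-3p 0.31 and the members' median -0.03.

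miR-341 comes from within Rian. Its 3p arm stood at 561 CPM in DMSO 1 and at 1023, 786 and 1049 CPM in DMSO 2 to 4, and ran from 497 over 560 to 905 CPM in DHPG. DMSO 1 lay within the range of the shallow DHPG libraries, and DHPG 6 within that of the deep DMSO libraries. miR-410-5p was the only member whose DHPG libraries (4.18 to 5.38 CPM) all lay below every DMSO library, as did 1.44% of all tested miRNAs. In the authors' deposited table no member had an adjusted p under 0.05, against 0.781% of the miRNAs with one.

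FSK was also set against DHPG, the comparison with most libraries on each side. Here 20 of 82 members passed the edgeR test (24.4%), all lower with FSK, against 14.9% of all 556 miRNAs in either direction and 7.01% lower. Their log2 fold changes ran from -0.40 to -1.06 with a median of -0.57. The 20 came from 14 hairpins, of which 6 were represented by both arms, with 8 members in the proximal block, 11 in the distal block and miR-485-5p without a position here. The median over all members was -0.28, against 0.04 over all tested miRNAs.

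These calls rest on single libraries. The count was 0 when any 1 of DHPG 2, DHPG 3, DHPG 4, DHPG 5, FSK 4 or FSK 5 was left out. It was also 0 when both FSK 4 and FSK 5 were left out, and in the fits with the replicate number as a block or with the library set. In each of those fits edgeR called 0 of all tested miRNAs, so the calls outside the cluster ended too. The estimates of the 20 members stayed below 0 in all of them. Without the filter on low counts 9 members were called, among 35 of 1435 miRNAs in all. Over all members, the FSK mean was below the DHPG mean in both library sets for 59 of 82, against 30.6% of all tested miRNAs.

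miR-666-5p differed most among the 8 members of smallest p. It stood between 680 and 978 CPM in FSK, with a median of 874, and between 999 and 2400 CPM in DHPG, with a median of 1788. The log2 fold change was -0.998 ± 0.24 (edgeR adjusted p = 0.036), and the groups did not overlap. DHPG 1 and DHPG 6, at 1078 and 999 CPM, lay close to the FSK libraries, and the 4 remaining DHPG libraries at 1779 CPM or more. The within-set difference was -0.91 in the shallow set and -0.41 in the deep set.

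miR-770-5p ran from 83.1 over 114 to 162 CPM in DHPG, again without overlap with FSK, and its log2 fold change was -0.70 ± 0.16 (edgeR adjusted p = 0.036). The lowest DHPG values were the 84.3 CPM of DHPG 1 and the 83.1 CPM of DHPG 6, against a highest FSK value of 77.7 CPM. miR-370-3p, at the end of the proximal block, ran from 198 over 305 to 339 CPM in FSK and from 361 over 416 to 633 CPM in DHPG, a log2 fold change of -0.62 ± 0.16.

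With miR-411-5p, which did not pass the test (-0.30 ± 0.11, edgeR adjusted p = 0.069), these were the 4 members with every FSK library below every DHPG library. The share of all tested miRNAs was 1.44%. The other members among the 8 of smallest p were miR-758-3p at -0.87 ± 0.21, miR-323-3p at -0.53 ± 0.14, miR-770-3p at -0.56 ± 0.15, miR-434-3p at -0.50 ± 0.12 and miR-666-3p at -0.47 ± 0.12, each with an edgeR adjusted p of 0.036. The 2 groups overlapped for all 5, and DHPG 1 was the lowest DHPG library for each of them.

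**Figure D4:**
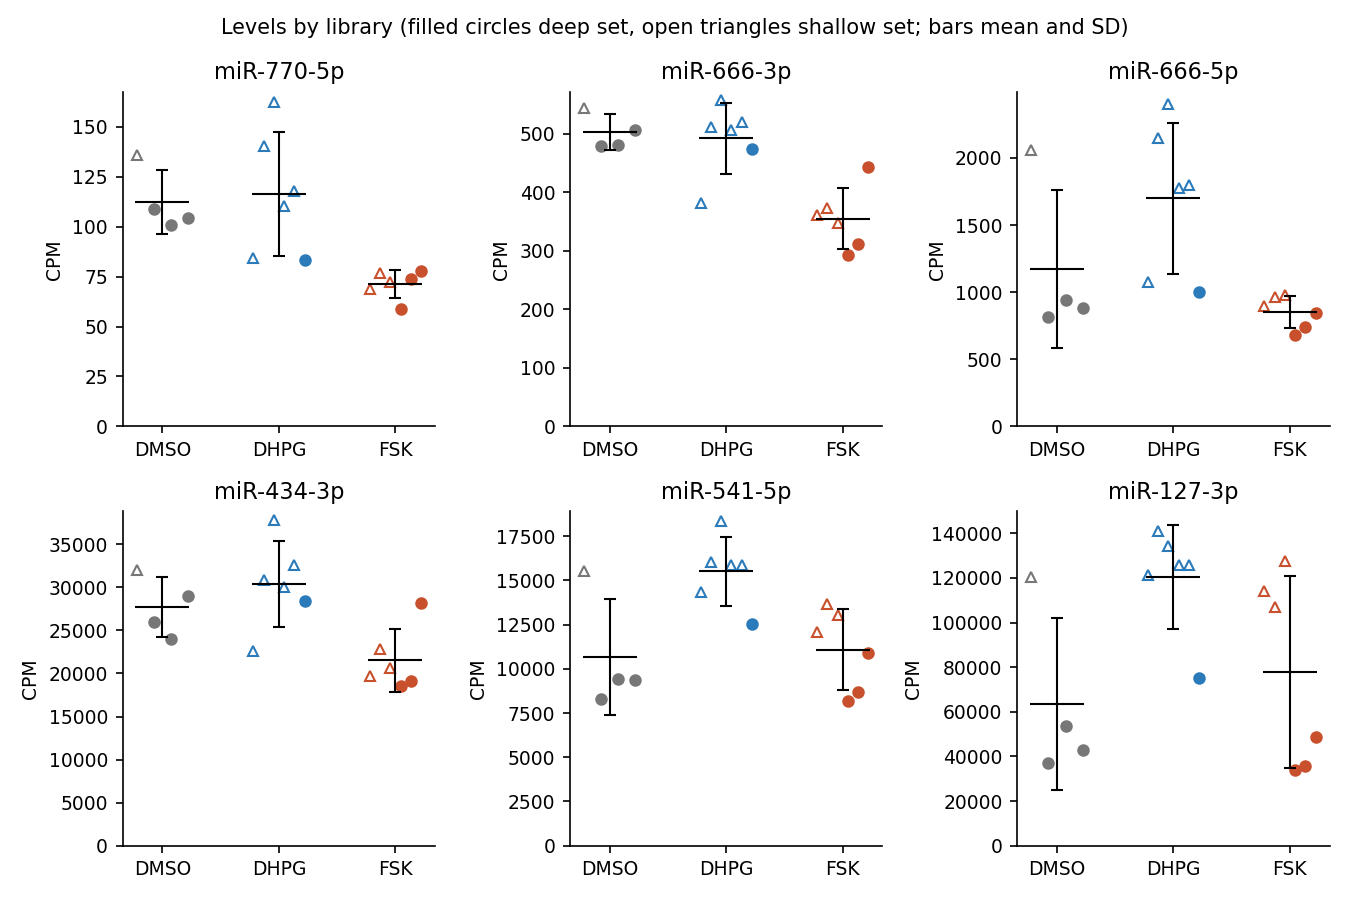
CPM of 6 members in each library by agent (filled circles deep set, open triangles shallow set, bars mean and SD). The FSK libraries lie below all DMSO and DHPG libraries for miR-770-5p and, for miR-666-5p, below all DHPG libraries but among DMSO 2 to 4, whereas for miR-127-3p the triangles lie above the circles under every agent.

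DHPG 1 stood apart from the other shallow DHPG libraries in the cluster as a whole. Against DMSO 1 its median member was lower by 0.29, with 79.3% of members below DMSO 1, while the medians of DHPG 2 to 5 lay between -0.08 and 0.03. FSK 1 to 3 had 75.6 to 81.7% of members below DMSO 1. Without DHPG 1, 20 members were called lower with FSK, 18 of them shared with the 20 above, among 89 of 544 miRNAs called in all.

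Other cell types moved with this comparison as well. Of the 7 listed miRNAs of microglia and blood only 3 were tested, and all 3 were called higher with FSK than with DHPG. The same held for 2 of 4 of the oligodendrocyte lineage and 0 of 7 of endothelial, mural and fibroblast cells. Among neuronal miRNAs 1 of 9 was called lower. Over all 556 tested miRNAs 44 were called higher and 39 lower. The summed microglia and blood level was 207 to 407 CPM in DHPG and 289 to 2546 CPM in FSK. The part of these cells in the members' differences was not tested beyond the fits without FSK 4 and FSK 5, where the members' median was -0.17 and edgeR called no miRNA (96 under an unadjusted p of 0.05).

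The abundant members differed unequally between FSK and DHPG. miR-434-3p, miR-434-5p, miR-433-3p (-0.49 ± 0.14) and miR-541-5p (-0.48 ± 0.16) were among the 20 lower ones. miR-127-3p at -0.63 ± 0.38, miR-410-3p at -0.41 ± 0.18 and miR-409-3p at -0.29 ± 0.13 did not pass. miR-136-3p, next to them in level, had an estimate of 0.21 ± 0.20. The pair of uncertain counts, miR-381-3p and miR-300-3p, had estimates of 0.25 ± 0.23 and -0.18 ± 0.11.

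Both arms of 32 cluster hairpins were counted often enough to compare them, among 145 hairpins in all. The measure was log2 of the 5p count over the 3p count in each library. The 3p arm was the more abundant in all 16 libraries for 17 hairpins and the 5p arm for 10. Mir376a, Mir376b, Mir377, Mir544 and Mir770 had libraries on both sides of equality. The ratio of the means was over 16-fold for 11 hairpins. In DMSO it was most one-sided for miR-410, with 974 counts of the 3p arm to 1 of the 5p arm, and for miR-300 with 759, while in miR-411 the 5p arm led by 72.2 to 1.

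In FSK against DMSO no cluster hairpin and none of the 145 (0%) passed limma on these ratios at an adjusted p under 0.05. At an unadjusted p under 0.05 there were 7 hairpins (4.83%), 2 of them in the cluster: miR-410 at -0.89 ± 0.27 and miR-543 at -0.50 ± 0.19 (limma adjusted p = 0.53 and 0.68). In DHPG against DMSO none passed either (0%), with 22 (15.2%) under an unadjusted 0.05 and 4 of them in the cluster. The smallest p there belonged to miR-127 at -1.24 ± 0.44 and miR-341 at -0.71.

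The miR-127 ratio followed the library set. It lay between -8.47 and -7.88 in the 9 shallow libraries and between -7.08 and -6.12 in the 7 deep ones, with no overlap. miR-127-5p itself was at 390 to 480 CPM in the shallow and 297 to 601 CPM in the deep libraries. Under DMSO and DHPG the shallow libraries were the lower ones in the 5p arm too (436 against 504 to 601 CPM, and 399 to 461 against 555 CPM), while under FSK the shallow ones, at 390 to 479 CPM, lay inside the deep range. With a set term the DHPG estimate was -0.42.

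In FSK against DHPG 4 of 145 hairpins passed limma (2.76%), 2 of them in the cluster. miR-341 had a ratio of -6.96 ± 0.42 in FSK (SD, n = 6) and -8.11 ± 0.48 in DHPG, a difference of 1.15 ± 0.23 (SE, limma adjusted p = 0.012). The groups overlapped by DHPG 2 and FSK 3, and the 5p arm behind it was at 1.24 to 7.15 CPM in all of these libraries, only a few counts in the smaller ones. miR-543 had -2.61 ± 0.29 in FSK and -1.84 ± 0.13 in DHPG, a difference of -0.76 ± 0.17 (limma adjusted p = 0.019), without overlap. Its 5p arm was lower with FSK (-0.78 ± 0.23, one of the 20 members called) while its 3p arm was not among them. The miR-341 call held in every alternative fit that gave it a value, with adjusted p from 0.0036 to 0.047, and that of miR-543 ended without DHPG 5, without FSK 1, without FSK 4 and FSK 5 together, with the replicate block and with a mean count of at least 1 (adjusted p up to 0.088 over its alternatives).

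**Figure D5:**
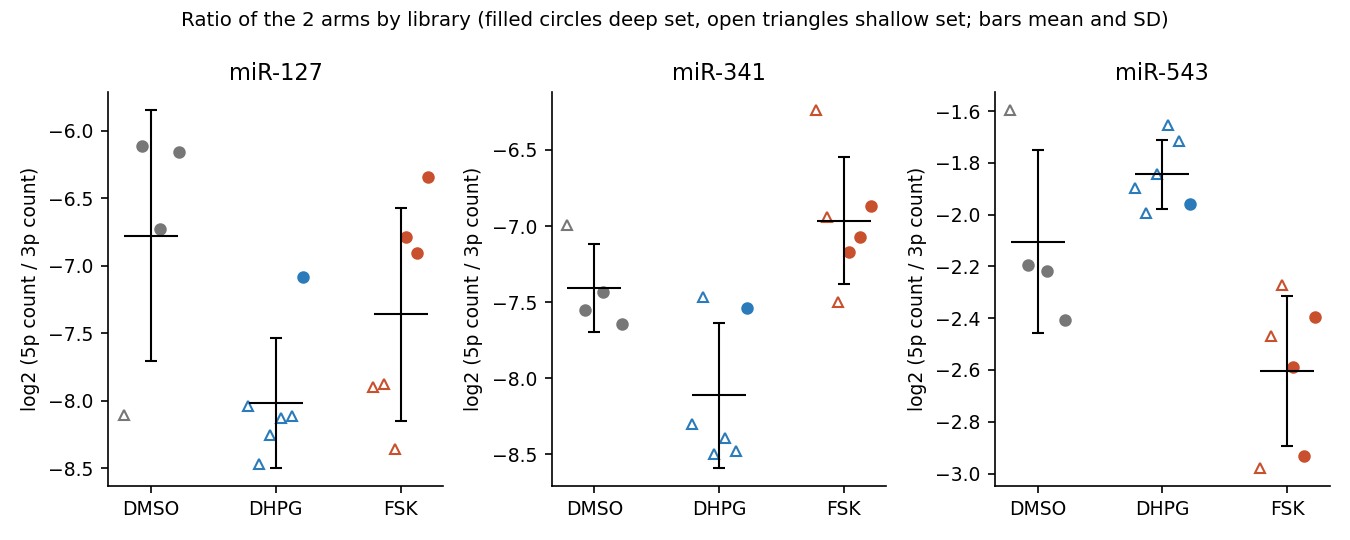
Log2 ratio of the 5p to the 3p count in each library by agent for 3 hairpins (filled circles deep set, open triangles shallow set, bars mean and SD). For miR-127 triangles and circles do not mix, while for miR-543 the FSK libraries lie below all DHPG libraries.

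Of 8 locus genes 6 were tested in total RNA, and Rtl1 and Dio3os were too low. Begain, the neighbouring gene upstream of Dlk1, was the only one called in FSK against DMSO, at 16.5 ± 2.93 CPM with FSK (SD, n = 6) and 30.4 ± 4.34 with DMSO (n = 4). Its log2 fold change was -0.89 ± 0.17 (edgeR adjusted p = 0.034), where 0.809% of all genes were called. That call ended when any 1 of DMSO 2 to 4, DHPG 5, FSK 4 or FSK 5 was left out.

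Mirg, whose span covers the distal end of the miRNA cluster, stood at 14.9, 11.3, 14.99 and 16.6 CPM in DMSO 1 to 4 and between 15.3 and 33.2 CPM in FSK. All FSK libraries except FSK 4 were above every DMSO library, and the log2 fold change was 0.82 ± 0.22 (edgeR adjusted p = 0.078). It passed with DESeq2 (adjusted p = 0.0094), in the edgeR fit that models the library set (0.040) and without FSK 4 and FSK 5 (1.05, edgeR adjusted p = 0.022). In 3 of the 6 alternative fits and in all 16 with a single library left out Mirg stayed uncalled (edgeR adjusted p up to 0.24). Meg3 changed by 0.48 ± 0.25 (adjusted p = 0.28) and Rian by 0.02 ± 0.17. The protein-coding Dlk1 and Dio3, both of low level, had -0.65 ± 0.77 and -0.30 ± 0.55, and the median over the 6 tested genes was -0.14. With DHPG no locus gene was called, where 0.00582% of all genes were, and Mirg, the 1 gene of the list under an unadjusted p of 0.05, had 0.59 ± 0.22 (edgeR adjusted p = 0.40).

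Genes of miRNA processing and function gave no call against DMSO in the main fit. For FSK against DMSO, DESeq2 called 1 of them, among 1276 of 17173 genes in all. The edgeR fit with the library-set term also called 1, among 1622 of 17173. Of 26 listed genes 23 were tested, and in both comparisons with DMSO none passed the edgeR test, with 5 under an unadjusted p of 0.05 for FSK and 3 for DHPG. The smallest p for FSK belonged to Tut4, a terminal uridylyltransferase, at 0.68 ± 0.19 (edgeR adjusted p = 0.084), and to its relative Tut7 at 0.35 ± 0.12. In FSK against DHPG 8 of the 23 passed, 6 higher and 2 lower, where 30.8% of all genes did. Tut4 had 0.83 ± 0.17 and Ago3, an Argonaute, 1.15 ± 0.29, while the adenosine deaminases Adarb1 and Adar had -0.32 ± 0.09 and -0.24 ± 0.08 (each with an edgeR adjusted p of 0.043 or less). Among the 6 tested locus genes Begain alone was called in that comparison, at -0.56 ± 0.16. These calls rest on FSK 4 and FSK 5: without both, none of the listed genes and 3 of 16723 genes in all passed, with 10 listed genes under an unadjusted p of 0.05. The 8 became 5 without DHPG 2, 4 without DHPG 3, 3 without FSK 5 and 5 with no filter. Drosha was at 61.7 ± 0.15 CPM in DMSO and 57.4 ± 3.50 in FSK, and Dicer1 at 52.8 ± 5.44 and 55.4 ± 5.57 CPM. All 4 Mef2 genes were tested and edgeR called none in either comparison, with 1 under an unadjusted p of 0.05 for FSK and 0 for DHPG.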

How the data were processed

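The labels' protocols describe Trizol and chloroform extraction and carry the TruSeq Stranded Total RNA kit for the miRNA samples too, so which small RNA kit was used stays unstated. The authors, per the submitters' processing notes, quantified reads with Salmon on GRCm38 and compared groups with DESeq, versions not given in the sources used here. The deposited tables hold estimated counts (3.68% of the miRNA values not whole), rounded here before testing. Columns headed Control were taken as the DMSO samples with the same number. The authors' deposited comparisons give a mean signal, log2 fold changes with standard errors, a test score and p-values, of which only those attributed to them in the text were used.

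Levels are TMM-scaled CPM. Groups of an assay shared 1 edgeR quasi-likelihood fit (edgeR 4.0.16, R 4.3.3; filterByExpr minimum count 10) with Benjamini-Hochberg adjustment over all features tested and a limit of 0.05. Arm ratios, log2 with a pseudocount of 0.5 and a mean count of at least 10 per arm, were tested with limma 3.58.1. Alternatives used DESeq2 1.42.0 and limma-voom. Both procedures were tested on simulated data for FSK against DHPG, drawn without the library sets of the real data. There edgeR recovered 26.5% of 1.5-fold, 86.0% of 2-fold and 87.5% of 0.5-fold changes. It called 4.30% of the unchanged miRNAs, whose median log2 estimate was -0.15. For the arm ratios, limma recovered 100% of 4-fold shifts and called 1.90% of the unchanged hairpins. Named members were the 10 most abundant in DMSO, up to 8 passing or the 4 of smallest p per comparison, seed-sharing members, up to 4 passing or 2 arm ratios per comparison, and a fixed group of 14 known members. Members, lists and library sets were chosen with earlier results of these data known.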

Additional observations from a re-analysis of the deposited data

Results flagged for a closer look

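In 6 of 90 groups of named members' log2 CPM values, the most extreme library stood far from the rest, with a gap to its nearest neighbour larger than the 95% limit of Dixon's test on the group's range; chance gives about 1 in 20. DMSO 1 was such a library 3 times, with 11.4094 for miR-136-3p, lower than the other controls, and 11.0053 for miR-666-5p and 8.95725 for miR-758-3p, both higher. DHPG 6 was low for miR-127-3p at 16.1985, as the one deep-set DHPG library. DHPG 3 was low for miR-495-3p at 6.0347, and FSK 6 was high for miR-376a-3p at 6.64647.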

How the results depend on the processing

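The number of cluster miRNAs called in FSK against DMSO moved from 0 to 6 with limma-voom (36 of 556 in all) and ran from 0 to 3 when single libraries were left out (3 without FSK 6, 5 of 566 in all), and in DHPG against DMSO it moved to 23 with limma-voom (172 of 556 in all) and stayed at 0 otherwise. In FSK against DHPG the 20 calls became 9 with no filter and 0 with the replicate block, with the library-set term, without FSK 4 and FSK 5, and without them with the set term (chosen after seeing the data). Each of the fits with 0 members called also called 0 other miRNAs. Leaving out single libraries gave 0 to 25 member calls, among them 13 without FSK 1. Whether replicate numbers pair the libraries stayed undecided. After removal of the agent means, 3 of 14 same-number pairs correlated over 0.1. Libraries of different sets could correlate negatively (-0.71 for DMSO 1 with DHPG 6), and some same-number pairs lie across the sets. These correlations therefore cannot exclude a shared source. Cluster arm ratios called were 0 to 1 (FSK against DMSO), 0 to 2 (DHPG against DMSO) and 1 to 2 (FSK against DHPG) over single libraries left out. The replicate block gave 1 in DHPG against DMSO and 1 in FSK against DHPG, which also had 1 with a mean count of at least 50, with one of at least 1, and without FSK 4 and FSK 5.

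Locus and biogenesis genes called in FSK against DMSO were 3 with DESeq2 and 3 with the library-set term instead of 1, and 0 to 1 without single libraries. In FSK against DHPG, with alternatives chosen after seeing the data, the 9 calls became 0 without FSK 4 and FSK 5 and 3 to 10 without single libraries. The Rian estimate changed sign, to -0.030 with the replicate block and down to -0.10 (from 0.14 at most) without single libraries, all near 0: -0.00099 without DMSO 1, -0.070 without DMSO 2, -0.0093 without FSK 1, -0.016 without FSK 2 and -0.097 without FSK 6. The cluster share in DHPG became 16.8% without the 5 most abundant miRNAs. As miR-127-3p is 1 of these 5, its counts left the cluster sum as well as the total. By library the share without the 5 was 13.2 to 17.5% in DMSO, 14.5 to 18.8% in DHPG and 8.28 to 16.3% in FSK. With single libraries left out, the cluster share over all miRNAs was 14.1 to 17.3% in DMSO, 21.1 to 22.3% in DHPG and 14.4 to 16.6% in FSK. Library totals without TMM moved the median of all tested miRNAs from 0.04 to -0.07 in FSK against DMSO and from -0.02 to -0.14 in DHPG against DMSO, and the members' medians to -0.30 and -0.02. Depth limits the members under 10 CPM, which have few counts in the smaller libraries.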

Other observations

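miR-673-5p, a cluster miRNA that the rule left out, had 473 counts in DMSO 2 and 4 in all other libraries together. Between Dlk1 and Dio3, 21 further miRNAs lie outside the rule, of which 5 were tested: miR-493-5p, miR-493-3p, miR-3072-3p, miR-1247-5p and miR-1188-5p. In FSK against DHPG their log2 fold changes were all below 0, with a median of -0.47 and no call.

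Of 5 mRNAs described as targets of cluster members, none was called in the main fit of FSK against DMSO (edgeR adjusted p = 0.096 for Limk1, the 1 gene under an unadjusted p of 0.05). DESeq2 called 1 of the 5 lower, among 1276 of 17173 genes in all. The edgeR fit with the library-set term also called 1 lower, among 1622 of 17173. Limk1, described for miR-134, averaged 37.3 ± 6.70 CPM with FSK and 53.7 ± 9.74 CPM with DMSO, a log2 fold change of -0.53 ± 0.16. Pum2 had 0.29 ± 0.14, Creb1 0.42 ± 0.20, Dcp2 0.28 ± 0.20 and Sv2a -0.28 ± 0.20. In FSK against DHPG edgeR called all 5, where 5283 of 17173 genes (30.8%) were called: Creb1 (0.84 ± 0.18), Pum2 (0.50 ± 0.13) and Dcp2 (0.49 ± 0.17) were higher and Limk1 (-0.65 ± 0.14) and Sv2a (-0.53 ± 0.18) lower. Without FSK 4 and FSK 5 none of the 5 was called.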
